A study of Arabidopsis thaliana with 12 samples.

Results

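Cysteine-rich receptor kinases (CRKs) are plant membrane receptors, and 40 of their genes were followed in rosettes of Arabidopsis thaliana. The 40 loci were a fixed list of named CRK genes, chosen by family membership and not by measured values, and all 40 were found among the 33602 genes of the deposited table. Of these, 34 passed the filter of the test, an average of 10 or more normalized counts in the 12 libraries, and 6 did not. Polyadenylated RNA was sequenced from 3-week-old plants grown on soil, with 3 biological replicates of each of 4 genotypes. In ceh1 plants ICS1 is intact and HDS is mutated, which encodes a plastid enzyme of the methylerythritol phosphate pathway of isoprenoid synthesis. The ceh1/eds16 plants carry the HDS mutation and also lack a working ICS1, the isochorismate synthase that makes most of the salicylic acid of stressed leaves. The eds16 plants lack ICS1 alone, and Col-0, named the parent in the labels, is the wild type for both genes. The ceh1 mutation was read in ceh1 against Col-0 and in ceh1/eds16 against eds16, and the loss of ICS1 in eds16 against Col-0 and in ceh1/eds16 against ceh1.

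A typical CRK carries cysteine-rich DUF26 domains outside the cell, a single membrane span and a serine/threonine kinase inside. The family is plant-specific, has spread by tandem duplication, and is known for transcripts that answer to pathogens, ozone and salicylic acid. Several members act in pattern-triggered immunity beside the flagellin receptor FLS2 and the NADPH oxidase RBOHD, which makes extracellular reactive oxygen. ARCK1, also called CRK45, is an exception in structure: it is a cytosolic kinase that lacks the receptor part.

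Reads in genes came to between 7.40 M and 18.08 M per ceh1 library, 4.99 M and 7.33 M per Col-0 library, 7.15 M and 8.70 M per ceh1/eds16 library, and 6.48 M and 8.90 M per eds16 library. ICS1 transcripts lay at 14.2 to 28.3 normalized counts in ceh1/eds16 and 10.4 to 19.2 in eds16, below all ceh1 libraries (631 or more) and all Col-0 libraries (224 or more), as the labels require. Normalized counts are reads divided by 1 size factor per library, set by the authors. Summed normalized counts of 4 rosette leaf markers were 90379 to 105546 in ceh1 against 213332 to 237945 in Col-0, and 96089 to 141283 in ceh1/eds16 against 197247 to 210636 in eds16. All 4 leaf markers and all 4 vascular markers were lower with the ceh1 mutation in both backgrounds, as were the 3 tested flower markers. Of 4 root markers only PYK10 was abundant enough to test and was higher, and their sum was 733 to 952 in ceh1 against 116 to 191 in Col-0, and 713 to 885 in ceh1/eds16 against 187 to 223 in eds16. Of the other root markers, RHD6 was at 0 in all ceh1, Col-0 and ceh1/eds16 libraries and IRT1 in all ceh1 and ceh1/eds16 libraries. The part of these shifts in the CRK values was not tested, and in whole rosettes fewer cells of a type and less RNA per cell cannot be told apart. Within ceh1/eds16, replicate 3 was the lowest of its group for 28 of the 34 CRKs (82.4%), against 42.5% of all 18289 tested genes, and calls that changed without it are named with the results.

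By the TAIR10.1 annotation, 36 of the 40 genes lie on chromosome 4, and 33 stand in tandem or adjacent groups. The largest array holds 19 members, CRK5 to CRK24 without CRK9, over 74.2 kb (chromosome 4, 12117491 to 12191704), with 8 genes on the plus strand and 11 on the minus strand. CRK36 to CRK40 fill 61.3 kb (chromosome 4, 2231717 to 2292965), CRK30 to CRK34 lie between 6963521 and 6989793 of the same chromosome, and CRK28 and CRK29 are neighbours at 11398857 to 11405235. CRK2 and CRK3 are neighbours on chromosome 1 (26584729 to 26591776), and 7 members stand alone. Coding sequences of the members were 67.4% identical over their aligned bases in the median of 780 pairs, and the closest pair was CRK19 and CRK20 at 90.2%. Reads could be split between such copies, and this is of most weight for CRK6, CRK22, CRK8 and CRK13, where 22.0%, 16.1%, 16.5% and 15.4% of 50-base exon windows recur elsewhere in the genome. The share was 6.72% or less in the other members. Gene models also overlap by 1190 bases for CRK16 and CRK17, by 470 bases for CRK28 and CRK29 and by 32 bases for CRK10 and CRK11. The first of these pairs and the second lie on the same strand, so reads in the overlap cannot be assigned to either gene by strand, and for CRK10 and CRK11, on opposite strands, the strand setting of the counting is not given in the sources used here. Values of these 6 genes are uncertain to that extent.

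The letters TTGAC are the core of the W-box, the element bound by WRKY transcription factors, many of which act in immunity. They occur on either strand in the 300 bases before the gene start in 30 of the 40 members (75%), against 50.4% of 26711 protein-coding genes. At least 3 matches were found in 10 members (25%), against 5.08% of the same genes, and at least 4 in 5 members (12.5%), against 1.17%. The longer form TTGACT was found in 47.5% of members and 22.0% of genes, TTGACC in 20% and 14.0%, and TGACG, a core of the element of TGA factors, in 35% and 21.3%. TTGACT and TTGACC each contain TTGAC, and a TGACG match can share 4 letters with a TTGAC match. Neighbours in an array share descent, so these are not independent sequences, and a match is a description of letters and not a binding site. Some windows are not free of other genes. That of CRK16, with 3 matches, lies inside the gene model of CRK17, and that of CRK28, with none, inside CRK29. The window of CRK15 runs into CRK16. The upstream windows of 4 members are printed because they set the member with most matches beside members whose transcripts moved most. They run 5′ to 3′ towards the gene in the TAIR10.1 reference genome of RefSeq, with each TTGAC, or GTCAA where the match is on the other strand, in capitals. The window of CRK11 is chr4:12143859-12144158 on the minus strand and holds 6 matches, that of CRK37 is chr4:2238070-2238369 on the plus strand and holds 2, that of CRK7 is chr4:12125364-12125663 on the plus strand and holds 1, and that of CRK21 is chr4:12180937-12181236 on the minus strand and holds none.
CRK11: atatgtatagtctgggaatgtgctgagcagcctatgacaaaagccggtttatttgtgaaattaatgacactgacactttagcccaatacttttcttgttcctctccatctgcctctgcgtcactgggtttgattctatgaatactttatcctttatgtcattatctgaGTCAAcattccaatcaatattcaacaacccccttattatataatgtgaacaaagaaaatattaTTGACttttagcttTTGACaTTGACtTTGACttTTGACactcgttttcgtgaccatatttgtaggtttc
CRK37: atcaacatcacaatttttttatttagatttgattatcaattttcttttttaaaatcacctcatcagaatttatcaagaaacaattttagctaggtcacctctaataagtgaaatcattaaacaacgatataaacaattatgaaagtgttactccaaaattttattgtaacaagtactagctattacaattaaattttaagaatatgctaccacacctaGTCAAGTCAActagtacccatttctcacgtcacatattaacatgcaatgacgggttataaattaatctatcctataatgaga
CRK7: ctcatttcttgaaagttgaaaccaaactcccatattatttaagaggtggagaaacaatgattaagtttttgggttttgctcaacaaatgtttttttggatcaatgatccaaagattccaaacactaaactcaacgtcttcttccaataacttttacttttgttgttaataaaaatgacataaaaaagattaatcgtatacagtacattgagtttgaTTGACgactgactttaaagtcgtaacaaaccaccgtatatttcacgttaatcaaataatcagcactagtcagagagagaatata
CRK21: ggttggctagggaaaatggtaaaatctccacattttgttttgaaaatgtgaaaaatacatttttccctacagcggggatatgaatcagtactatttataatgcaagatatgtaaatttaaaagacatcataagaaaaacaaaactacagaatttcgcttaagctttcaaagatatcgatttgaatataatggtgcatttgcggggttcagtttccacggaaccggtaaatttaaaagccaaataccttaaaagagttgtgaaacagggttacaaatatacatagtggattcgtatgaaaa
Among the 27 members whose transcripts were higher with ceh1 in both backgrounds, described next, 21 held a match and 7 held at least 3. CRK3, CRK12, CRK13, CRK19, CRK40 and ARCK1 were higher and held none. Of the 7 other tested members, 4 held a match and 1 held at least 3, and CRK21, CRK22 and CRK28 held none. Of the 6 members under the filter, 5 held a match, 2 held at least 3 and CRK30 held none. A link between matches and calls was not tested.

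Most CRK transcripts were more abundant when HDS was mutated, with or without ICS1. In ceh1 against Col-0, 27 of the 34 tested members were higher and 3 lower at an adjusted p under 0.05 in limma, fitted to log2(normalized count + 1), where 25.2% of all 18289 tested genes were called higher and 25.0% lower. In ceh1/eds16 against eds16, 30 were higher and 2 lower, where 22.1% of all genes were called higher and 20.2% lower. The median log2 fold change of the 34 members was 1.41 in ceh1 against Col-0 (all tested genes 0.01) and 1.68 in ceh1/eds16 against eds16 (all tested genes 0.01). Log2 fold changes are given ± standard error throughout, and levels ± SD. A change of at least 2-fold was reached by 20 of the higher and 2 of the lower members in ceh1, and by 22 and 2 in ceh1/eds16. These comparisons have no library in common. Each of the 27 (100%) was called higher in ceh1/eds16 as well, where they made up 90% of the 30. The other 3 were CRK28, CRK34 and CRK41. How many calls were shared over all tested genes was not counted. The overlap is therefore not read as a trait of these members. CRK21 and CRK42 were lower in both, and CRK29 was called lower in ceh1 against Col-0. Among the tested members, 3 had a mean under 10 in at least 1 genotype without the ceh1 mutation (CRK23, CRK27 and CRK38). For CRK27 and CRK38 this held in both Col-0 and eds16, so the filter kept these genes through the mutants where they are high. Both are among the 27 and the 30, and among the members higher by at least 2-fold in each background. Their calls add no support to any of those counts.

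**Figure D1:**
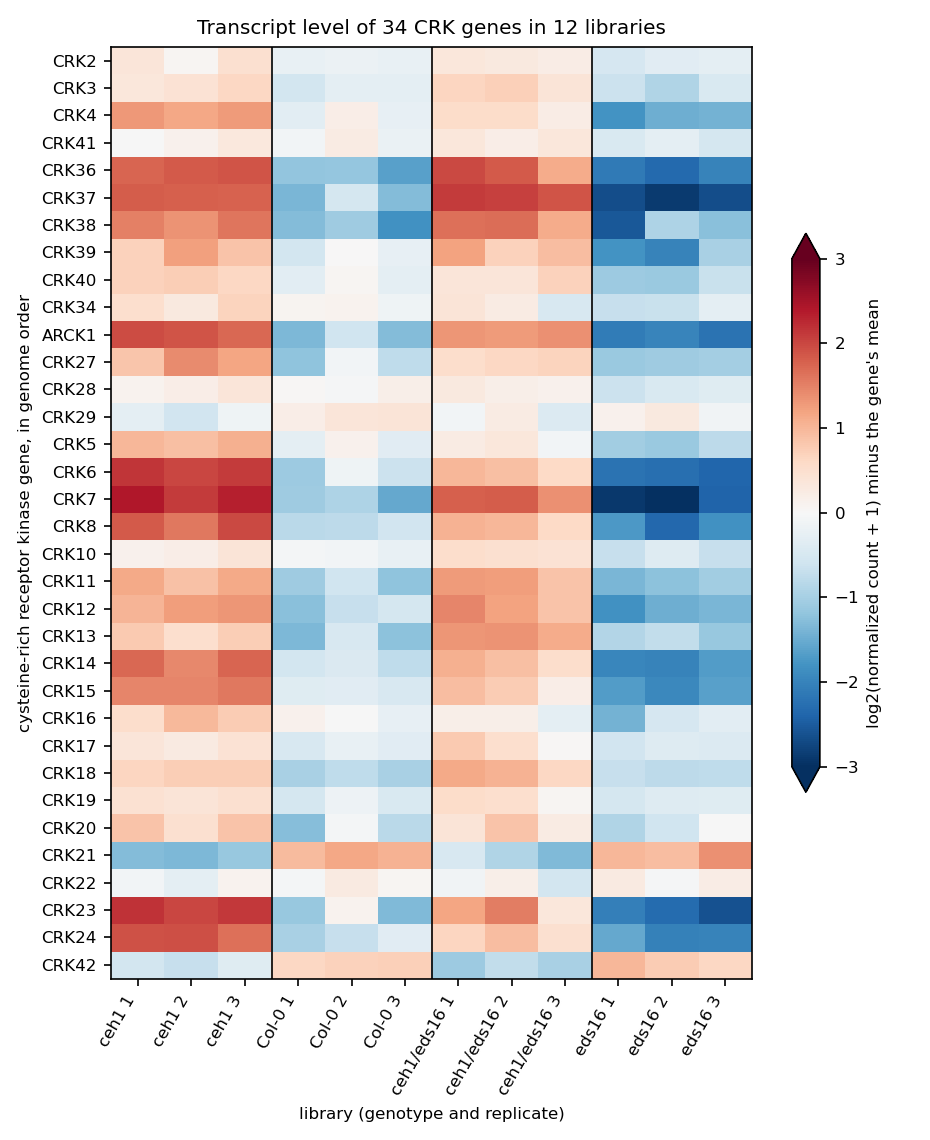
Each row is 1 of the 34 tested CRK genes in genome order and each column 1 of the 12 libraries, and the colour gives log2(normalized count + 1) minus the gene's mean over the 12 libraries. Most rows are above their mean in ceh1 and ceh1/eds16 and below it in Col-0 and eds16, and the rows of CRK21 and CRK42 show the opposite.

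In the largest array, 17 of 19 members were higher in ceh1 than in Col-0, CRK21 was lower and CRK22 was not called, and the same counts held for ceh1/eds16 against eds16. The shares of all tested genes called higher in these comparisons were 25.2% and 22.1%. The array opens with CRK5, CRK6, CRK7 and CRK8. CRK5 gives salicylic acid-dependent cell death and resistance to Pseudomonas when overproduced. CRK6 and CRK7 take part in the response to extracellular reactive oxygen, and CRK6 can also associate with FLS2. CRK7 (AT4G23150) had normalized counts of 604, 487 and 577 in ceh1, against 53.5, 58.9 and 38.6 in Col-0, and of 395, 402 and 296 in ceh1/eds16, against 14.4, 13.3 and 20.7 in eds16. All 3 ceh1 libraries were above all Col-0 libraries by a wide gap, and all ceh1/eds16 libraries above all eds16 libraries. The log2 fold change of CRK7 was 3.46 ± 0.20, adjusted p = 1.09e-09 (limma) in ceh1, the steepest among the members there, and 4.43 ± 0.20, adjusted p = 3.37e-11 in ceh1/eds16, or 11.04-fold and 22.6-fold in means. CRK6 (AT4G23140) had normalized counts of 1166, 1057 and 1137 in ceh1, against 122, 243 and 167 in Col-0, and of 525, 491 and 397 in ceh1/eds16, against 55.7, 54.5 and 49.7 in eds16. The groups did not overlap, and Col-0 replicate 2 was the highest of the wild-type libraries. The log2 fold change of CRK6 was 2.71 ± 0.19, adjusted p = 8.63e-09 (limma) in ceh1 and 3.11 ± 0.19, adjusted p = 7.82e-10 in ceh1/eds16. CRK8 (AT4G23160) had normalized counts of 257, 218 and 285 in ceh1, against 40.4, 41.04 and 47.6 in Col-0, and of 149, 145 and 108 in ceh1/eds16, against 21.1, 13.3 and 19.7 in eds16. CRK8 is 88.9% identical to CRK6 over 1338 aligned bases, and the annotated coding sequence of CRK8 is 3132 bases long. The log2 fold change of CRK8 was 2.53 ± 0.20 in ceh1 and 2.84 ± 0.20 in ceh1/eds16. CRK5 (AT4G23130) had normalized counts of 424, 397 and 444 in ceh1, against 172, 232 and 169 in Col-0, and of 252, 271 and 200.1 in ceh1/eds16, against 104, 98.4 and 123 in eds16. Its change was smaller than that of its neighbours, at 1.15 ± 0.16 in ceh1 and 1.14 ± 0.16 in ceh1/eds16, again with no overlap between the groups.

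Members from CRK10 to CRK15 were higher throughout, though by unequal steps. CRK10 moved least, and its libraries are given with the background difference further on. CRK11 (AT4G23190), the member with 6 W-box cores upstream, averaged 237 ± 24.7 normalized counts in ceh1 and 59.1 ± 13.9 in Col-0, and 252 ± 39.2 in ceh1/eds16 and 48.7 ± 5.899 in eds16 (SD, n = 3 each). Its log2 fold change was 2.00 ± 0.18 in ceh1 and 2.34 ± 0.18 in ceh1/eds16. CRK12 (AT4G23200) changed by 2.04 ± 0.22 and 2.72 ± 0.22 in those comparisons, and CRK14 (AT4G23220) by 2.22 ± 0.16 and 2.71 ± 0.16. CRK13 causes cell death and salicylic acid accumulation when overproduced. CRK13 (AT4G23210) had normalized counts of 196, 162 and 188 in ceh1, against 43.99, 80.3 and 47.6 in Col-0, and of 283, 291 and 246 in ceh1/eds16, against 61.4, 67.8 and 50.8 in eds16. Its highest libraries were those of ceh1/eds16, all above all ceh1 libraries, which is unlike CRK5 to CRK8. The log2 fold change of CRK13 was 1.70 ± 0.20, adjusted p = 2.99e-06 (limma) in ceh1 and 2.18 ± 0.20, adjusted p = 1.33e-07 in ceh1/eds16. CRK15 (AT4G23230) had normalized counts of 177, 178 and 193 in ceh1, against 48.7, 49.96 and 45.1 in Col-0, and of 122, 109 and 73.2 in ceh1/eds16, against 19.2, 15.96 and 19.7 in eds16. Each mutant group lay above its own background without overlap, with log2 fold changes of 1.91 ± 0.19 in ceh1 and 2.38 ± 0.19 in ceh1/eds16.

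Towards the far end of the array the responses diverged. CRK16 (AT4G23240), CRK17 (AT4G23250), CRK18 (AT4G23260) and CRK19 (AT4G23270) were higher in ceh1 by 0.80 ± 0.28, 0.70 ± 0.16, 1.61 ± 0.13 and 0.82 ± 0.14 on the log2 scale. In ceh1/eds16 the same genes were higher by 0.76 ± 0.28, 0.90 ± 0.16, 1.68 ± 0.13 and 0.81 ± 0.14. The CRK16 call in ceh1/eds16 (adjusted p = 0.0347, limma) was lost without eds16 replicate 1, where the log2 fold change was 0.42 with an adjusted p of 0.208, and also without ceh1/eds16 replicate 1 or 2. Its call in ceh1 was lost without Col-0 replicate 3 or ceh1 replicate 2 or 3, with an adjusted p of up to 0.0943. CRK20, whose loss makes leaves less susceptible to Pseudomonas, is the closest relative of CRK19 but far less abundant. CRK20 (AT4G23280) had normalized counts of 35.1, 26.5 and 34.9 in ceh1, against 7.13, 17.8 and 10.3 in Col-0, and of 24.9, 34.5 and 22.5 in ceh1/eds16, against 9.595, 11.97 and 18.6 in eds16. All libraries of the mutants were above those of their backgrounds, with log2 fold changes of 1.45 ± 0.33, adjusted p = 0.00178 (limma) in ceh1 and 1.00 ± 0.33, adjusted p = 0.0228 in ceh1/eds16. The last of these calls was lost when replicate 1 or 2 of eds16, or replicate 2 of ceh1/eds16, was left out, with an adjusted p of up to 0.102. CRK23 (AT4G23310) had normalized counts of 196, 175 and 191 in ceh1, against 19.02, 46.4 and 16.7 in Col-0, and of 98.7, 127 and 54.7 in ceh1/eds16, against 9.595, 7.98 and 6.22 in eds16. Col-0 replicate 2 was far above the other wild-type libraries, yet below every ceh1 library. CRK23 rose by 2.88 ± 0.34, adjusted p = 2.99e-06 (limma) on the log2 scale in ceh1 and by 3.34 ± 0.34, adjusted p = 4.32e-07 in ceh1/eds16. CRK24 (AT4G23320) had normalized counts of 155, 159 and 129.6 in ceh1, against 20.2, 24.98 and 32.2 in Col-0, and of 64.03, 78.8 and 57.6 in ceh1/eds16, against 13.4, 9.31 and 9.32 in eds16. This last gene of the array rose by 2.49 ± 0.23 in ceh1 and 2.54 ± 0.23 in ceh1/eds16, with no overlap in either.

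Between these genes lie CRK21 and CRK22, which did not follow their neighbours. CRK21 and CRK42 are given in every library although they were chosen for this after their values were seen. CRK21 (AT4G23290) had normalized counts of 133, 129 and 149.5 in ceh1, against 643, 739 and 686 in Col-0, and of 237, 176 and 132 in ceh1/eds16, against 660.2, 632 and 862 in eds16. All libraries with the ceh1 mutation were below all libraries without it, in both backgrounds. CRK21 changed by −2.32 ± 0.18, adjusted p = 2.63e-08 (limma) on the log2 scale in ceh1, or 5.03-fold lower in means than in Col-0, and by −2.00 ± 0.18, adjusted p = 8.3e-08 in ceh1/eds16. No other of the 19 array members was called lower in either comparison. CRK22 (AT4G23300), whose upstream window also held no W-box core, averaged 299 ± 40.97 normalized counts in ceh1 and 339.6 ± 39.97 in Col-0, and 289 ± 72.3 in ceh1/eds16 and 354 ± 40.2 in eds16 (SD, n = 3 each). Its log2 fold changes of −0.19 ± 0.17, adjusted p = 0.383 (limma) and −0.32 ± 0.17, adjusted p = 0.148 were not called. Without ceh1/eds16 replicate 2, CRK22 was called lower in ceh1/eds16 against eds16 (−0.49, adjusted p = 0.0285, limma). A share of its exon sequence recurs elsewhere in the genome, as given above.

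In the CRK36 to CRK40 array 5 of 5 members were called higher in each background. Of all tested genes, 25.2% were called higher in ceh1 and 22.1% in ceh1/eds16. CRK38 is 1 of the 5 and passed the filter only through the mutants, with means of 5.65 in Col-0 and 5.37 in eds16. Its call therefore adds no support to that count. CRK36 associates with FLS2 and the kinase BIK1 in flagellin signalling, and it also phosphorylates ARCK1 in the response of seedlings to abscisic acid and osmotic stress. CRK36 (AT4G04490) had normalized counts of 492, 517 and 539 in ceh1, against 63.01, 64.2 and 46.4 in Col-0, and of 570.0, 524 and 316 in ceh1/eds16, against 32.6, 27.9 and 35.2 in eds16. Every library with the ceh1 mutation was far above every library without it, and ceh1/eds16 replicate 3 was the lowest of the mutants. CRK36 rose by 3.15 ± 0.20, adjusted p = 2.86e-09 (limma) on the log2 scale in ceh1 and by 3.80 ± 0.20, adjusted p = 1.58e-10 in ceh1/eds16. CRK37 (AT4G04500) had normalized counts of 365, 362 and 356 in ceh1, against 39.2, 71.4 and 41.2 in Col-0, and of 442, 428 and 382 in ceh1/eds16, against 15.4, 13.3 and 15.5 in eds16. The ceh1/eds16 libraries were above the ceh1 libraries, and the eds16 libraries below those of Col-0. CRK37 rose by 2.86 ± 0.19, adjusted p = 5.91e-09 (limma) in ceh1, and its 4.73 ± 0.19, adjusted p = 1.23e-11 in ceh1/eds16, 28.3-fold in means, was the steepest change of any member there. CRK38 (AT4G04510) had normalized counts of 47.4, 42.4 and 50.8 in ceh1, against 5.94, 7.14 and 3.86 in Col-0, and of 52.5, 53.9 and 36.1 in ceh1/eds16, against 1.92, 7.98 and 6.22 in eds16. CRK38 was scarce without the ceh1 mutation, from 12 reads over the Col-0 libraries and 14 over the eds16 libraries, so the added count of 1 lowers its fitted log2 fold changes of 2.88 ± 0.37 and 3.06 ± 0.37. CRK39 (AT4G04540) had normalized counts of 74.6, 109 and 83.7 in ceh1, against 30.9, 46.4 and 38.6 in Col-0, and of 108, 74.4 and 88.8 in ceh1/eds16, against 12.5, 10.6 and 22.8 in eds16. CRK39 rose by 1.19 ± 0.26, adjusted p = 0.00139 (limma) in ceh1 and 2.54 ± 0.26, adjusted p = 6.04e-07 in ceh1/eds16. CRK40 (AT4G04570), 87.3% identical to CRK39, averaged 880.2 ± 36.7 in ceh1 and 487 ± 73.1 in Col-0, and 769 ± 107 in ceh1/eds16 and 285 ± 50.7 in eds16 (SD, n = 3 each), with log2 fold changes of 0.86 ± 0.14 and 1.43 ± 0.14.

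**Figure D2:**
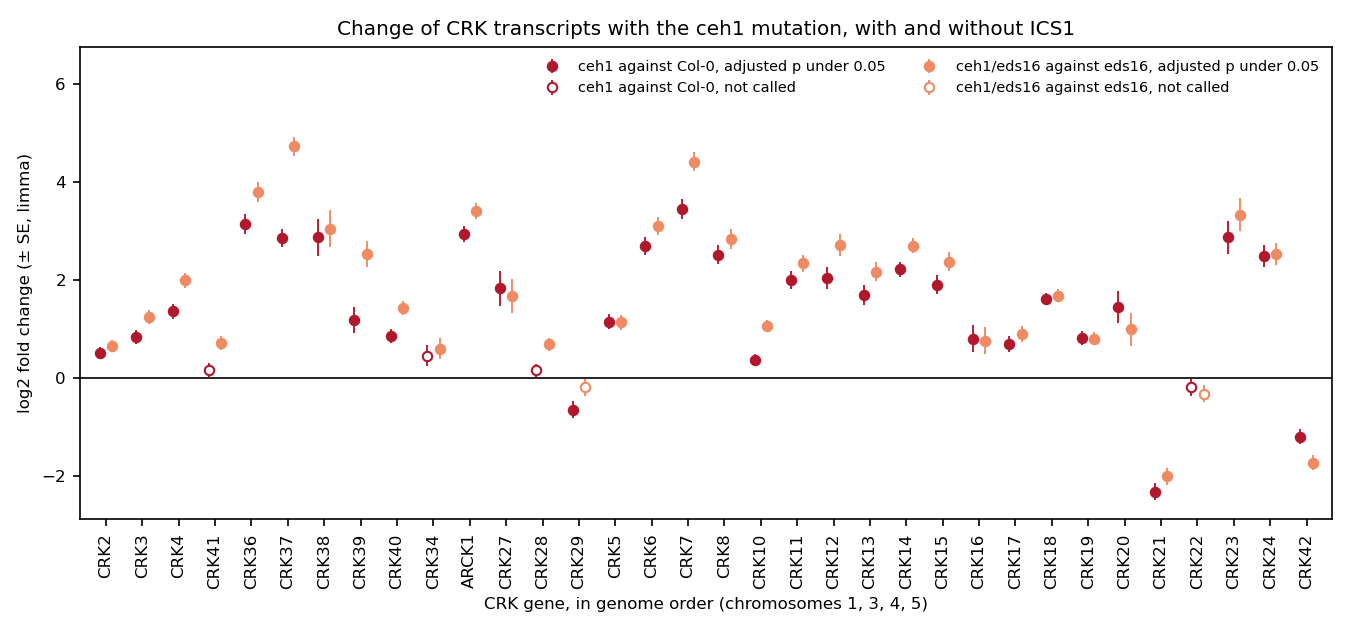
For each of the 34 tested CRKs, in genome order, points give the log2 fold change of ceh1 against Col-0 and of ceh1/eds16 against eds16, and bars give the standard error. CRK7, CRK36, CRK37 and ARCK1 are the farthest to the higher side, CRK21 and CRK42 are on the lower side in both, and CRK37 shows the widest gap between backgrounds.

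ARCK1, the cytosolic partner of CRK36, stood alone in the genome but moved like the steep responders. ARCK1 (AT4G11890) had normalized counts of 1350.2, 1281 and 1155 in ceh1, against 137, 230.2 and 139 in Col-0, and of 872, 842 and 892 in ceh1/eds16, against 79.6, 87.8 and 73.5 in eds16. Every library with the mutation was far above every library of its background. The log2 fold change of ARCK1 was 2.94 ± 0.17, adjusted p = 9.08e-10 (limma) in ceh1 and 3.42 ± 0.17, adjusted p = 7.22e-11 in ceh1/eds16, or 7.48-fold and 10.8-fold in means. CRK4 can associate with FLS2 and strengthens flagellin responses when overproduced. CRK4 (AT3G45860) had normalized counts of 1734, 1573 and 1701 in ceh1, against 566, 808 and 589.7 in Col-0, and of 1036, 1028 and 826 in ceh1/eds16, against 202, 255 and 265 in eds16. The groups did not overlap in either background, and CRK4 rose by 1.37 ± 0.15, adjusted p = 1.33e-06 (limma) in ceh1 and by 2.00 ± 0.15, adjusted p = 1.09e-08 in ceh1/eds16. CRK2 binds and phosphorylates RBOHD and is needed for a full oxidative burst. CRK2 (AT1G70520) had normalized counts of 725, 588 and 779.5 in ceh1, against 479, 499.6 and 478 in Col-0, and of 712, 689 and 652 in ceh1/eds16, against 395, 446 and 462 in eds16. Its libraries separated too, but the change was modest, at 0.51 ± 0.12, adjusted p = 0.00207 (limma) in ceh1 and 0.66 ± 0.12, adjusted p = 0.000265 in ceh1/eds16. CRK3 (AT1G70530), the neighbour of CRK2, rose by 0.84 ± 0.14 in ceh1 and 1.25 ± 0.14 in ceh1/eds16. CRK27 (AT4G21230) averaged 22.6 ± 4.72 normalized counts in ceh1 and 5.88 ± 2.75 in Col-0, and 14.98 ± 0.703 in ceh1/eds16 and 3.99 ± 0.153 in eds16 (SD, n = 3 each), with log2 fold changes of 1.83 ± 0.35 and 1.68 ± 0.35.

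CRK28 and CRK29 form a pair that can associate with each other, and CRK28 with FLS2 and its co-receptor BAK1. CRK28 (AT4G21400) had normalized counts of 174, 185 and 205 in ceh1, against 165, 157 and 182 in Col-0, and of 197, 180.2 and 177 in ceh1/eds16, against 102, 116 and 125 in eds16. In ceh1 the libraries overlapped those of Col-0 (0.16 ± 0.13, adjusted p = 0.333, limma), while in ceh1/eds16 all were above eds16 (0.69 ± 0.13, adjusted p = 0.000486). CRK29 (AT4G21410) had normalized counts of 119, 96.7 and 132 in ceh1, against 165, 187 and 189 in Col-0, and of 136, 170.5 and 108 in ceh1/eds16, against 158, 177 and 134 in eds16. In ceh1 every library of CRK29 was below every Col-0 library (−0.65 ± 0.18, adjusted p = 0.00594, limma), and in ceh1/eds16 the groups overlapped (−0.19 ± 0.18, adjusted p = 0.411). The difference between backgrounds was not called for either gene, at 0.53 ± 0.19, adjusted p = 0.119 for CRK28 and 0.46 ± 0.25, adjusted p = 0.298 for CRK29 (limma). CRK34 (AT4G11530) and CRK41 (AT4G00970) were not called in ceh1, at 0.46 ± 0.21, adjusted p = 0.0803 and 0.16 ± 0.14, adjusted p = 0.349 (limma). In ceh1/eds16 they were called higher, at 0.60 ± 0.21, adjusted p = 0.0305 for CRK34, a call lost when replicate 1 or 2 of either eds16 or ceh1/eds16 was left out (adjusted p up to 0.143), and 0.71 ± 0.14, adjusted p = 0.000501 for CRK41 (limma). Without ceh1/eds16 replicate 3, CRK34 was called higher in ceh1 against Col-0 as well (adjusted p = 0.0238, limma). CRK42 (AT5G40380) had normalized counts of 85.8, 77.5 and 97.7 in ceh1, against 193, 202 and 206 in Col-0, and of 58.7, 74.4 and 63.5 in ceh1/eds16, against 250.4, 213 and 195 in eds16. Like CRK21, it was lower in all libraries with the ceh1 mutation, with log2 fold changes of −1.20 ± 0.15, adjusted p = 6.46e-06 (limma) in ceh1 and −1.73 ± 0.15, adjusted p = 7.33e-08 in ceh1/eds16.

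The 6 members under the filter gave few reads and were tested only in a fit with no filter. CRK30 (AT4G11460) had 54 reads over the ceh1 libraries against 7 over Col-0, and 31 over ceh1/eds16 against 13 over eds16. CRK31 (AT4G11470) had 42 reads in ceh1 against 10 in Col-0, and 23 in ceh1/eds16 against 6 in eds16. Both had more reads in the mutants than in their backgrounds. CRK25 (AT4G05200) had 28 reads in ceh1 against 1 in Col-0, and 8 in ceh1/eds16 against 4 in eds16. CRK26 (AT4G38830) gave 28 reads in ceh1 against 6 in Col-0, and 4 in ceh1/eds16 against 4 in eds16. In CRK26 the ceh1/eds16 and eds16 libraries held equally few. CRK32 (AT4G11480) gave 12 reads in ceh1 against 2 in Col-0, and 20 in ceh1/eds16 against 3 in eds16. CRK33 (AT4G11490) had 1 read in all 12 libraries together, in ceh1/eds16. The 3 ceh1 libraries together also hold more reads than those of any other genotype, and these are reads without scaling. In the fit with no filter, CRK25 (adjusted p = 0.0219) and CRK30 (1.54 ± 0.46 on the log2 scale, adjusted p = 0.0156) were called higher in ceh1 against Col-0 in limma, which brought the members called higher there to 29. CRK32 was called higher in ceh1/eds16 against eds16 (adjusted p = 0.00875, limma), and none of the 6 was called in the other comparisons. Fitted changes of CRK25 and CRK32 are not given, since CRK25 had 1 read in Col-0 and CRK32 had 3 in eds16.

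Without the HDS mutation, CRK transcripts were on the whole less abundant where ICS1 was lost. In eds16 against Col-0, 16 of the 34 tested CRKs were lower and none was higher at an adjusted p under 0.05 in limma, where 2.96% of all tested genes were called lower and 1.63% higher. No member was higher at an unadjusted p under 0.05 either, nor in edgeR or DESeq2, and these tools called 13 and 16 lower. The median log2 fold change of the members was −0.56, against −0.02 over all genes, and 11 of the 16 were lower by at least 2-fold. The share of all tested genes called lower by that much was not counted. CRK6 averaged 53.3 ± 3.15 normalized counts in eds16 and 178 ± 60.7 in Col-0 (SD, n = 3 each), a log2 fold change of −1.66 ± 0.19, adjusted p = 6.74e-05 (limma). CRK37 averaged 14.7 ± 1.24 in eds16 and 50.6 ± 18.01 in Col-0, with −1.66 ± 0.19, adjusted p = 7.8e-05 (limma). CRK7 changed by −1.59 ± 0.20, adjusted p = 0.000197 and CRK23 by −1.54 ± 0.34, adjusted p = 0.0161 (limma). For CRK6, CRK7, CRK23 and CRK37, all eds16 libraries were below all Col-0 libraries. These genes were picked by the test, so that separation adds no support to their calls. CRK4 was 2.72-fold lower in means (−1.43 on the log2 scale), CRK15 changed by −1.35, CRK39 by −1.34, CRK14 by −1.30, CRK8 by −1.23, CRK24 by −1.19 and ARCK1 by −1.02. Smaller falls were called for CRK36 (−0.83), CRK5 (−0.80), CRK40 (−0.77), CRK28 (−0.55) and CRK10 (−0.46). The 18 members not called had log2 fold changes between −0.71 (CRK12) and 0.21 (CRK20), and CRK21, with 0.05, and CRK42, with 0.12, were among them. Without ceh1/eds16 replicate 3, CRK12 (adjusted p = 0.0386) and CRK34 (adjusted p = 0.0333) were also called lower in limma, and CRK12 likewise without Col-0 replicate 1. The Col-0 libraries are also those that ceh1 was set against, so these changes and those of ceh1 are not independent. Without Col-0 replicate 2, which was the highest wild-type library for 25 of the 34 members, 9 of the 16 calls were left (CRK4, CRK6, CRK7, CRK8, CRK14, CRK15, CRK24, CRK37 and ARCK1). The adjusted p of the other 7 was then between 0.0531 (CRK40) and 0.131 (CRK10) in limma. That library is not the only one on which these calls rest. CRK10, CRK23, CRK28, CRK36 and CRK39 also lost theirs when some single eds16 libraries were left out. CRK10, CRK28 and CRK36 lost theirs without Col-0 replicate 1 too.

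The loss of ICS1 was also read in plants with the HDS mutation. In ceh1/eds16 against ceh1, 8 of 34 were lower and none higher in limma, where 4.24% of all tested genes were called lower and 5.93% higher. The median log2 fold change was −0.12, against −0.01 over all genes. All 8 were also lower in eds16 against Col-0, which uses other libraries, and they make up 50% of the 16 lower there. The sharing of such calls over all tested genes was not counted. Among the 8 called, the 4 with the largest changes were CRK6 (−1.26 ± 0.19, adjusted p = 0.000281, limma), CRK24 (−1.14 ± 0.23, adjusted p = 0.00314), CRK8 (−0.92 ± 0.20, adjusted p = 0.00601) and CRK15 (−0.87 ± 0.19, adjusted p = 0.00677). CRK23 changed by −1.08 ± 0.34, adjusted p = 0.0524 (limma) and was not called, though it was with the replicate block (adjusted p = 0.0321) and in 3 leave-outs. CRK5, CRK14, CRK4 and ARCK1 changed by −0.82, −0.81, −0.80 and −0.54, and the ARCK1 call (adjusted p = 0.0483, limma) was ended by 8 of the 12 leave-outs of 1 library (all but those of Col-0 libraries and ceh1/eds16 replicate 3), with an adjusted p of up to 0.188. Of the 8, 6 belong to the CRK5 to CRK24 array, which holds 19 of the 34 tested members. That is 31.6% of the array, against 23.5% of all tested members. None of the 5 members of the CRK36 to CRK40 array was called. Whether the arrays differ was not tested. CRK36 averaged 470.2 ± 135 normalized counts in ceh1/eds16 and 516 ± 23.9 in ceh1, with overlapping libraries, and CRK37 averaged 417 ± 31.6 in ceh1/eds16 and 361 ± 4.62 in ceh1 (SD, n = 3 each). PR1, a defence gene that depends on salicylic acid, gives a scale: it averaged 85.7 ± 23.6 in ceh1/eds16 and 7388 ± 1949 in ceh1, a log2 fold change of −6.42. CRK13 was the 1 member at an unadjusted p under 0.05 in the higher direction (0.58 ± 0.20, adjusted p = 0.0757, limma), and edgeR and DESeq2 on recovered reads each called it higher. Those tools also called more members lower, 11 in edgeR and 10 in DESeq2, with CRK7 and CRK23 added in both and CRK16 in edgeR. Without ceh1/eds16 replicate 3, CRK13, CRK18 and CRK21 were called higher in limma.

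**Figure D3:**
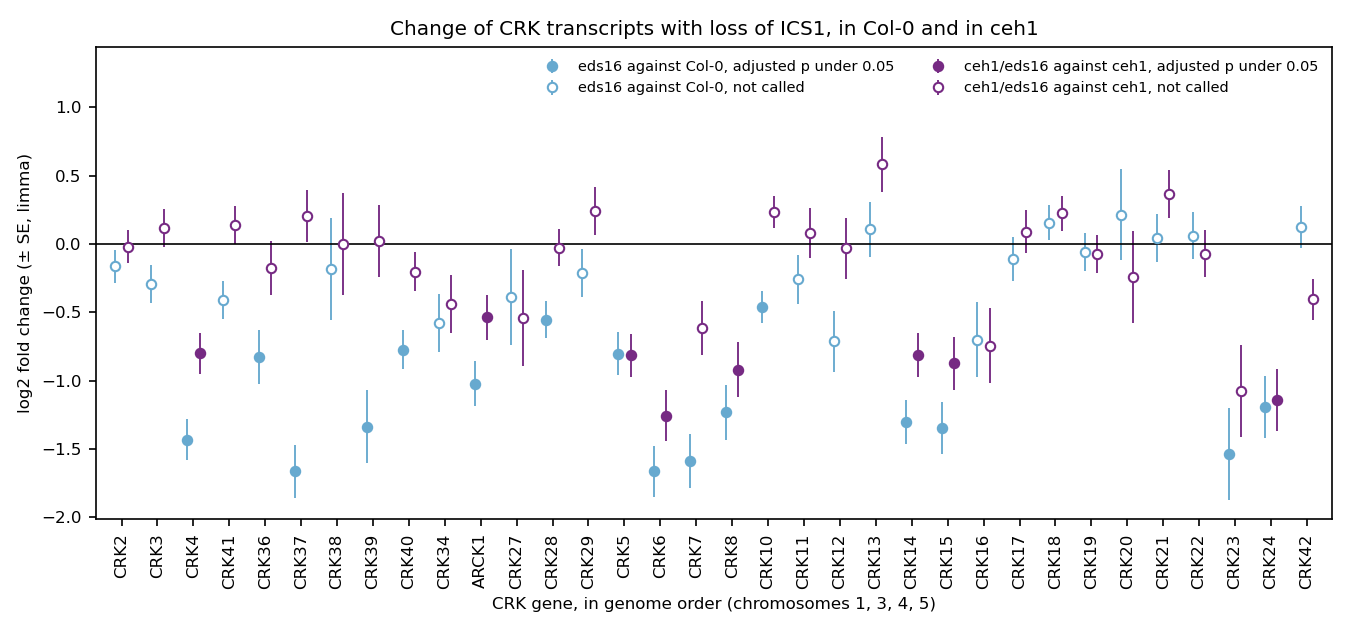
For the 34 tested CRKs in genome order, points give the log2 fold change of eds16 against Col-0 and of ceh1/eds16 against ceh1, and bars give the standard error. Most points of eds16 against Col-0 are below 0, with CRK6, CRK37 and CRK7 the lowest, whereas in ceh1/eds16 against ceh1 CRK37 is above 0 and CRK6 is the lowest.

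Whether the effect of ceh1 differed between the backgrounds with and without ICS1 was tested as an interaction, the change in ceh1/eds16 against eds16 minus that in ceh1 against Col-0. It was positive in 27 of 34 members, with a median of 0.41 against 0.02 over all genes. The same difference equals the change in ceh1/eds16 against ceh1 minus that in eds16 against Col-0. It uses the same 12 libraries, so it is not independent of the changes with loss of ICS1 given above. CRK37, CRK39 and CRK10 were called higher and no member lower in limma, where 3.08% of all tested genes were called higher and 1.79% lower. At an unadjusted p under 0.05 in limma there were 11 members higher and 1 lower, and neither edgeR nor DESeq2 called any lower. The shares of all tested genes at that unadjusted threshold, or with a positive difference, were not counted. For CRK37 the difference was 1.87 ± 0.27, adjusted p = 0.000912 (limma), from means of 417 in ceh1/eds16 against 14.7 in eds16 and of 361 in ceh1 against 50.6 in Col-0. Its call held without any 1 of the 12 libraries. CRK39 differed by 1.35 ± 0.37, adjusted p = 0.0463 (limma), and 10 of the 12 leave-outs, all but eds16 replicate 3 and ceh1/eds16 replicate 3, ended that call, with an adjusted p of up to 0.143. The CRK39 call was also lost in edgeR (adjusted p = 0.0613). In limma it was lost with a pseudocount of 5 (adjusted p = 0.0509), a filter at 50, no filter (adjusted p = 0.0857), scaling to an equal upper quartile, and a replicate block. CRK10 (AT4G23180) had normalized counts of 603, 625 and 718 in ceh1, against 522, 516 and 465 in Col-0, and of 789, 764 and 734 in ceh1/eds16, against 341, 416 and 338 in eds16. In CRK10 the ceh1/eds16 libraries were the highest and the eds16 libraries the lowest of the 4 groups. Its ceh1 effect was 0.37 ± 0.12, adjusted p = 0.0158 (limma) against Col-0 and 1.07 ± 0.12, adjusted p = 1.31e-06 in ceh1/eds16, and the difference of 0.70 ± 0.17, adjusted p = 0.0254 was lost in 8 of the 12 leave-outs (kept when the library left out was the third of Col-0, ceh1 or ceh1/eds16 or the second of eds16), with an adjusted p of up to 0.0904. The call in ceh1 against Col-0 was lost without Col-0 replicate 3 or ceh1 replicate 3, with an adjusted p of up to 0.076. CRK7 stood just outside the threshold at 0.97 ± 0.28, adjusted p = 0.0568 (limma), and without ceh1/eds16 replicate 3 the calls were 7, with CRK4, CRK7, CRK14 and CRK36 added.

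**Figure D4:**
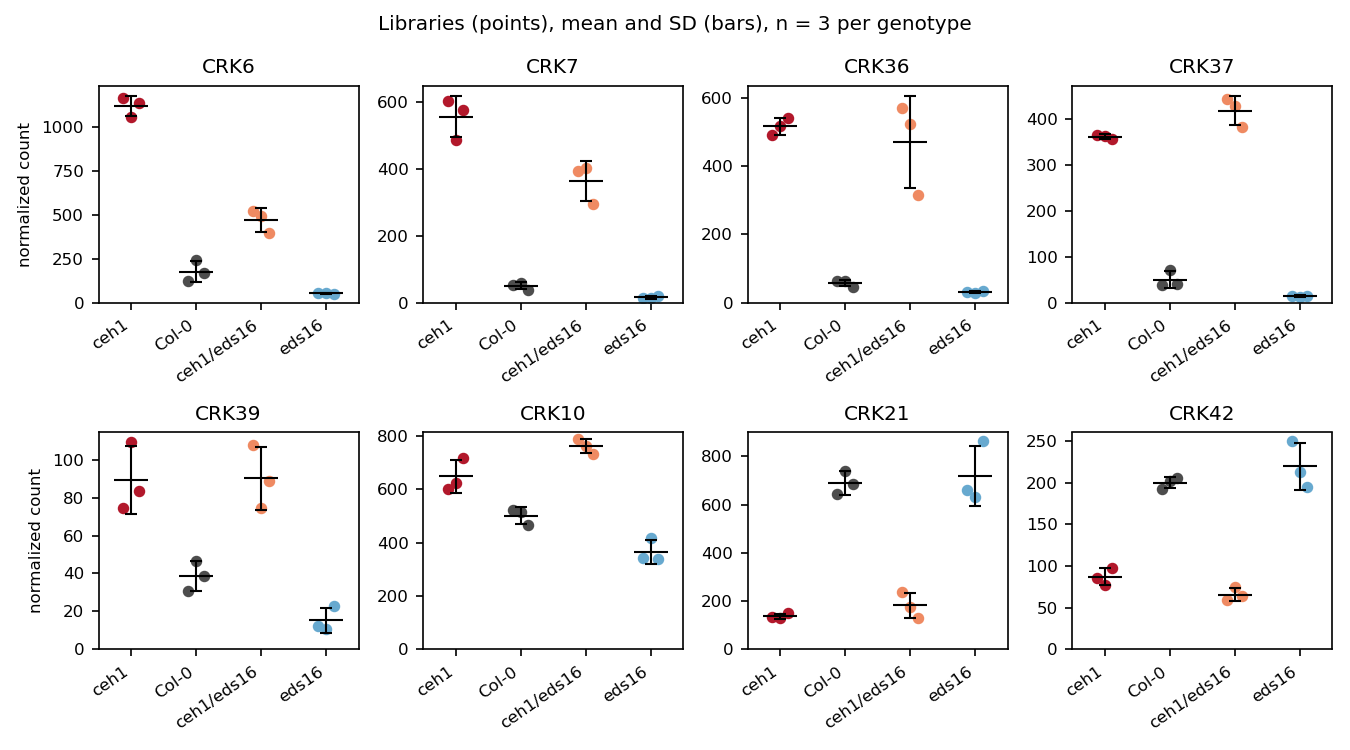
Each panel is 1 CRK gene and each point the normalized count of 1 library on a linear scale. Groups run with ceh1 left of Col-0 and ceh1/eds16 left of eds16, and bars give the group mean and SD. The points of CRK6 and CRK7 in ceh1/eds16 sit below those in ceh1, the points of CRK37 in ceh1/eds16 sit above those in ceh1 and its points in eds16 below those in Col-0, and CRK21 and CRK42 are lower with the ceh1 mutation.

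The make-up of the family shifted with these changes. Levels of different genes were compared as normalized counts per kb of exon. Summed over the 40 members, this level was 6239, 5924 and 6361 in the ceh1 libraries, against 2477, 3049 and 2542 in Col-0, and 5578, 5378 and 4483 in ceh1/eds16, against 1977, 2021 and 2178 in eds16. The sums of the mutants were all above those of their backgrounds, and ceh1/eds16 replicate 3 was the lowest of the mutants. In ceh1 the most abundant members were ARCK1 (750 ± 58.7 per kb, 12.1% of the sum), CRK4 (651 ± 33.2) and CRK18 (620.3 ± 22.6). In Col-0 the order was CRK21 (290.3 ± 20.1 per kb, 10.8% of the sum), CRK4 (255 ± 52.1) and CRK18 (203 ± 18.2). In ceh1/eds16 it was CRK18 (733 ± 134 per kb, 14.3%), ARCK1 (516 ± 15.2) and CRK4 (376 ± 46.5). In eds16 CRK21 again came before the others (302 ± 52.8 per kb, 14.7%), followed by CRK18 (225 ± 7.17) and CRK19 (183 ± 11.2) (SD, n = 3 in each group). The ranges of mean ± SD overlapped for CRK4 and CRK18 in ceh1, for CRK21 and CRK4 and for CRK4 and CRK18 in Col-0, and so did those of the third member and the next in Col-0 (CRK18 and CRK2), in ceh1/eds16 (CRK4 and CRK19) and in eds16 (CRK19 and CRK2).

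Genes that share the DUF26 domain or the pathway were read alongside. Of 16 other DUF26 genes, 12 were tested. In ceh1 against Col-0, 6 (50%) were higher and 3 (25%) lower, where 25.2% and 25.0% of all tested genes were called so. In ceh1/eds16 against eds16, 5 (41.7%) were higher and 2 (16.7%) lower, where the shares of all tested genes were 22.1% and 20.2%. The median log2 fold change of the 12 was 0.44 in ceh1 against Col-0 and 0.0036 in ceh1/eds16 against eds16. Those of all tested genes were 0.01 and 0.0052, and in ceh1/eds16 6 of the 12 were above 0 and 6 below. PDLP5, a plasmodesmal protein that restricts transport between cells, averaged 109.8 ± 23.5 normalized counts in ceh1 and 37.9 ± 8.502 in Col-0 (SD, n = 3 each; log2 fold change 1.51 ± 0.24, adjusted p = 6.04e-05, limma). PDLP6, of the same protein family, fell to 14.8 ± 3.61 in ceh1, against 32.99 ± 11.9 in Col-0 (−1.06 ± 0.32, adjusted p = 0.0113, limma). CRK9, annotated inside the largest array beside the 19 members, changed by 1.52 ± 0.13, adjusted p = 7.66e-08 (limma) in ceh1. Of 10 genes of the pattern receptor complex, 5 (50%) were higher and 1 (10%) lower in ceh1 against Col-0, and 6 (60%) higher and 1 (10%) lower in ceh1/eds16 against eds16. Their medians were 0.41 and 0.67, and the shares of all tested genes are those given beside the 12 DUF26 genes. BIK1 and its relative PBL1, cytoplasmic kinases of that complex, changed by 1.83 ± 0.18 and 1.42 ± 0.17 in ceh1 on the log2 scale. FLS2, the receptor that CRK4, CRK6 and CRK36 join, was lower in ceh1 (−0.56 ± 0.12, adjusted p = 0.00133, limma). RBOHD was the 1 gene of the 10 called in the interaction, at 1.05 ± 0.19, adjusted p = 0.00516 (limma). In eds16 against Col-0, 3 of the 10 and 2 of the 12 were lower and none higher, where 2.96% of all tested genes were called lower and 1.63% higher. In ceh1/eds16 against ceh1, 2 of the 10 were lower and 1 higher, and 3 of the 12 were lower. There 4.24% of all tested genes were called lower and 5.93% higher.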

How the data were processed

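Rosette RNA of 4 genotypes was measured in 12 libraries. The authors deposited a normalized signal, read counts divided by 1 size factor in each library. TopHat2, DESeq2 and the TAIR10 build appear in the submitters' processing notes; their versions, the annotation, the counting tool and the strand setting were not given in the sources used here. Dividing each library by its smallest step gave whole reads (100% of values within 0.01), and so the depths. Per the series' design text, the 3 libraries of a genotype are biological replicates.

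Of 33602 genes, 18289 averaged 10 or more normalized counts and entered the test. Values were taken as log2(normalized count + 1), which understates changes of scarce genes, and fitted with limma 3.58.1 (R 4.3.3). The fit had 4 group means, a variance trend, 8 residual and 8.69 prior degrees of freedom. Tests were two-sided, with Benjamini-Hochberg adjustment over the 18289 genes, and the fit was tested on simulated data. On the recovered reads, edgeR 4.0.16 called 4567 genes higher and 4742 lower in ceh1 against Col-0, and DESeq2 1.42.0 called 4502 and 4619, against 4617 and 4566 in limma. Other alternatives changed the pseudocount, filter, scaling and variance estimate, added a replicate block, or left out 1 library at a time.

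The members, gene lists and markers were chosen with earlier results of these data known. Values in every library were given for members with the 6 largest changes by ceh1 in either background, those called in the interaction, the 4 largest called changes by eds16 in each background, and 11 members with published roles. No column of per-sample values was left unused. Upstream and coding sequences were read from the TAIR10.1 genome and annotation of RefSeq, which holds 32835 of the table's loci, with Biopython 1.88. CRK17 is listed there as EMB1290 with CRK17 as a synonym. Protein sequences were not used here.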

Additional observations from a re-analysis of the deposited data

Results flagged for a closer look

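In 3 of the 34 tested CRKs the ceh1 effect differed between the backgrounds without and with ICS1, by the test of the difference itself in limma. The effect in ceh1/eds16 against eds16 exceeded that in ceh1 against Col-0 by 1.87 on the log2 scale for CRK37 (adjusted p = 0.000912), by 1.35 for CRK39 (adjusted p = 0.0463) and by 0.70 for CRK10 (adjusted p = 0.0254). With 3 libraries in each genotype, no library of a group was tested for standing apart from its replicates. Without 1 library at a time, the CRK37 difference was between 1.60 and 2.02 and its adjusted p between 0.000286 and 0.00485. The CRK39 difference was between 1.15 and 1.66 with an adjusted p between 0.0112 and 0.143, and that of CRK10 between 0.64 and 0.80 with an adjusted p between 0.00703 and 0.0904.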

How the results depend on the processing

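No CRK value changed direction with its call under the 21 alternatives. Of the members' calls, 28 of 30 in ceh1 against Col-0 (all but CRK10 and CRK16) and 29 of 32 in ceh1/eds16 against eds16 (all but CRK16, CRK20 and CRK34) held in every alternative in which the gene was tested. With the filter at 50, CRK16, CRK20, CRK27 and CRK38 were not tested, so that alternative says nothing of their calls. Leaving out 1 library at a time gave 25 to 28 members higher and 3 lower in ceh1 against Col-0, and 27 to 30 higher and 2 to 3 lower in ceh1/eds16 against eds16, where the third lower was CRK22. In the interaction 1 to 7 members were called higher (241 to 1684 of all genes, and 104 to 1328 lower), with the highest counts without ceh1/eds16 replicate 3. In eds16 against Col-0 the leave-outs gave 9 to 18 members lower, with 67 to 751 of all genes higher and 170 to 1029 lower. In ceh1/eds16 against ceh1 they gave 0 to 3 members higher and 7 to 10 lower, with 613 to 1707 of all genes higher and 404 to 1541 lower. The 3 higher were CRK13, CRK18 and CRK21, without ceh1/eds16 replicate 3. There edgeR called 1 member higher (CRK13) and 11 lower, and DESeq2 called 1 higher (CRK13) and 10 lower, against 8 lower in limma. Genes called lower in the interaction numbered 201 with no filter and 493 in DESeq2, against 327. The cause of these shifts was not tested.

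Replicate numbers are shared by the genotypes but did not pair the libraries: same-numbered libraries deviated from their group means with correlations of −0.448 to 0.118 over 18 pairs. Differently numbered libraries of different genotypes gave −0.18 to 0.438 over 36 pairs. The highest were ceh1 replicate 3 with ceh1/eds16 replicate 2 (0.438) and ceh1 replicate 2 with ceh1/eds16 replicate 3 (0.421), and the cause was not tested. With the replicate number as a block, 1 member (CRK37) and 366 genes were called higher and 200 lower in the interaction, and 168 genes higher in eds16 against Col-0. With no filter, CRK25 and CRK30 were called higher in ceh1 against Col-0 (29 members in all) and CRK32 in ceh1/eds16 against eds16. Few reads limit what can be said of these and of CRK26, CRK31 and CRK33.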
